A study of Homo sapiens with 8 samples.

Results

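Rotenone at 0.4 µM was set against dimethyl sulfoxide (DMSO), the solvent control, in HepaRG cells, a human hepatic cell line that differentiates into hepatocyte-like and biliary-like cells. The cells compared were those that the deposited cell table names as 0.4 µM rotenone in runs 5 and 6 and as DMSO control in runs 3 to 6, with at least 500 genes and at most 20% of their UMIs (unique molecular identifiers, 1 per counted RNA molecule) from genes with the prefix MT-. This left 523 of 724 rotenone-treated cells and 781 of 930 DMSO-treated cells, together 1304 of the 12976 cells of the series. The RNA of single fixed cells was barcoded by the split-pool method Parse Evercode and sequenced in 8 sublibraries split from 1 pool. Rotenone was present for 24 hours in differentiated HepaRG cultures that had been grown for 7 days, and control cultures received DMSO at 0.1% for the same time. The labels name no engineered allele in any group. The study describes 1 treated culture per condition, what a run number stands for is not stated in the labels or methods, and each sample name occupied 1 well of the first barcoding round. The samples, called cultures below, may therefore be repeats of 1 culture, and p-values measure only the spread between them, which may be technical.

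Rotenone is a plant-derived insecticide that blocks electron transfer from complex I of the mitochondrial respiratory chain to ubiquinone, and it also binds tubulin and hinders the assembly of microtubules. A cell with a blocked respiratory chain is known to activate the integrated stress response, in which phosphorylation of the translation factor eIF2α lowers general protein synthesis and favours the transcription factor ATF4. Other stress programmes, such as the heat shock response driven by HSF1, refold or degrade damaged proteins. In hepatocytes, synthesis of plasma proteins, bile acids, urea and drug-metabolising enzymes depends on a network of liver transcription factors around HNF4A.

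UMIs were summed per culture and given as CPM, the count per 1000000 UMIs of the culture. The rotenone cultures of runs 5 and 6 held 413 and 110 cells with 93754929 and 7146777 UMIs, and the DMSO cultures of runs 3, 4, 5 and 6 held 250, 127, 311 and 93 cells with 12552536, 3417334, 33404488 and 4819220 UMIs. In the rotenone culture of run 6, 52.4% of the cells exceeded the 20% limit on MT- UMIs, against 16.2% in the rotenone culture of run 5 and 0.781% to 20.9% in the DMSO cultures. Of the cells used, 156 shared their barcode combination with another cell of the same culture in another sublibrary (68 rotenone-treated, 88 DMSO-treated), and the counts of calls without them stand in the closing section. The 12 hepatocyte markers had a summed level of 18574 and 9602 CPM in the rotenone cultures and 11004 to 26987 CPM in the DMSO cultures. Summed biliary or progenitor markers were at 143 and 168 CPM in the rotenone cultures and at 133 to 218 CPM in the DMSO cultures, and summed stellate cell or fibroblast markers at 89.1 and 106 CPM against 209 to 324 CPM. In what follows, paired values belong to the rotenone cultures of runs 5 and 6, and the 4 values after them to the DMSO cultures of runs 3, 4, 5 and 6.

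Most genes differed between the conditions. By edgeR's quasi-likelihood test of the 2 rotenone cultures against the 4 DMSO cultures, 3794 of 19831 tested genes were higher (19.1%) and 8373 were lower (42.2%) at a Benjamini-Hochberg adjusted p under 0.05, and 12039 of these 12167 calls had one direction within run 5 and within run 6. The within-run differences reuse cultures of this test, so that agreement is not independent of the calls. The total count set the scale of the test. With TMM factors, which centre the bulk of the genes, the median log2 fold change of all tested genes moved by 0.45, to -0.10 against -0.56, and 5570 genes were higher (28.1%) and 6078 lower (30.6%). All 3794 rises stayed past the test under TMM factors, 2295 of the falls did not, and no fall became a rise. Counts under TMM factors are given beside each list below, since many falls did not pass the test under the other scale and many further genes rose under it. Lists are described by their counts and medians, to be read beside the shares over all tested genes just given. No set test was run.

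The direction differed by gene class and, at this level, by gene length. Among genes of at least 50 CPM in a group, 344 of 398 long non-coding RNA genes were lower and 31 were higher, with a median log2 fold change of -2.83 (-2.44 within run 5 and -3.04 within run 6). Protein-coding genes of the same level split more evenly, with 2111 of 5000 higher and 1618 lower and a median of 0.25, where 39.6% of all genes of this level were higher and 36.5% lower. By length, the median was 0.86 for 335 genes under 10 kb, 0.51 for 2823 genes of 10 to 100 kb and -0.76 for 2277 longer genes. Over all tested genes, low ones included, these medians were -0.43, -0.45 and -0.97. A gene that falls can reach the 50 CPM level through the DMSO cultures alone. Over all tested long non-coding RNA genes, 3078 of 4866 were lower and 361 higher, with a median of -1.60. Long non-coding RNAs such as MALAT1 and NEAT1 are known to stay in the nucleus, and NEAT1, the scaffold of paraspeckles, was at 2523 and 1408 CPM in the rotenone cultures, against 6911, 7355, 6855 and 5139 CPM in DMSO. It was lower at 0.4 µM (log2 fold change -1.74, SE 0.35, edgeR adjusted p = 8.87e-04), while the single culture at 0.2 µM rotenone had 15109 CPM, above all of these cultures.

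**Figure D1:**
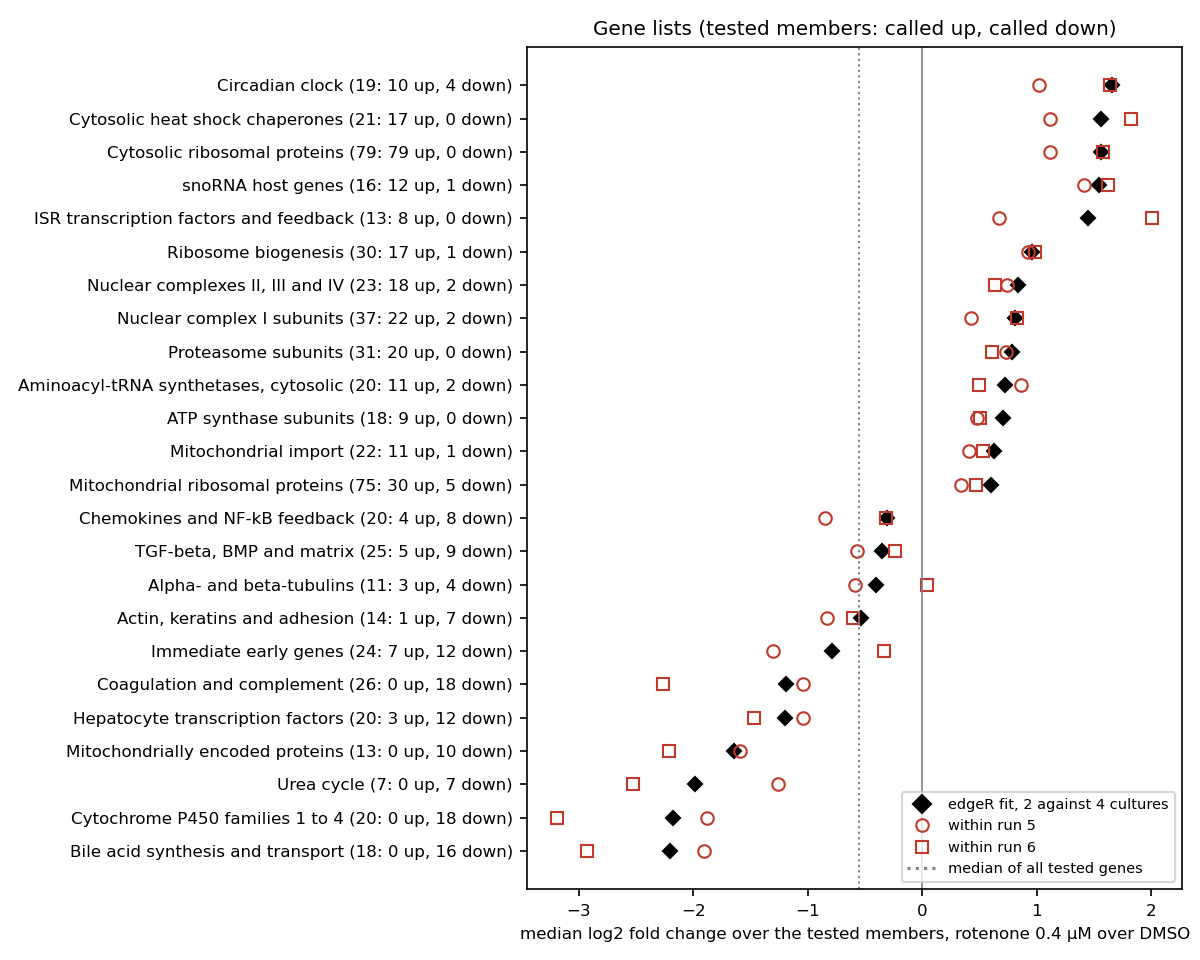
Median log2 fold change of rotenone 0.4 µM over DMSO (horizontal axis) over the tested members of 24 gene lists (vertical axis, with the members tested and called by edgeR in each direction). Diamonds are the fit of 2 against 4 cultures, open circles and squares the differences within run 5 and within run 6, and the dotted line is the median of all tested genes, -0.56. The lists of clock, heat shock, ribosomal protein and snoRNA host genes lie highest and those of bile acid, cytochrome P450 and urea cycle genes lowest in the fit.

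The 20 genes with the largest changes at 50 CPM or more had long non-coding RNAs at both ends. MGC4859, an uncharacterised long non-coding RNA gene on chromosome 7 from 10449820 to 10779944 of GRCh38, had 449 and 312 CPM in the rotenone cultures against 2.31, 2.93, 3.23 and 1.04 CPM in DMSO (log2 fold change 7.23, SE 0.31, edgeR adjusted p = 1.78e-07). RGS16, which speeds the switching off of G proteins, had 27.7 and 105 CPM against 0.797, 0.293, 0.898 and 0.830 CPM (log2 fold change 6.36, SE 0.49, edgeR adjusted p = 1.31e-06). FAM222A had 138 and 194 CPM against 2.07, 1.17, 2.87 and 2.28 CPM (log2 fold change 6.17, SE 0.28, edgeR adjusted p = 1.78e-07). In each of these both rotenone cultures were above every DMSO culture, and the rotenone cultures differed most from each other in RGS16. RNF150, a membrane protein with a RING domain, stood at 1121 and 1100.5 CPM in the rotenone cultures, against 30.4, 51.8, 43.1 and 38.4 CPM (log2 fold change 4.77, SE 0.24, edgeR adjusted p = 3.03e-07). The other rises of this group were NR1D1 and CIART of the circadian clock, described below, and ENSG00000285534, ENSG00000232884, ENSG00000289986 and ENSG00000228541, with log2 fold changes of 6.83, 6.57, 5.54 and 5.49. ENSG00000285534 differed between the rotenone cultures, at 891 and 163 CPM. Of the 10 largest falls 9 were long non-coding RNA genes, and ENSG00000287694 is annotated as protein-coding. MIR122HG, from which the liver microRNA miR-122 is processed, had 2.36 and 1.40 CPM against 155, 127, 103 and 201 CPM (log2 fold change -6.14, SE 0.39, edgeR adjusted p = 7.07e-07). LINC02315, on chromosome 14 from 40954693 to 41149309, had 14.4 and 6.86 CPM against 302, 454, 259 and 300.3 CPM (log2 fold change -4.89, SE 0.39, edgeR adjusted p = 1.47e-06). Further falls, ENSG00000287778, ENSG00000287923, ENSG00000236212, ENSG00000250696, ENSG00000287694, ENSG00000287460 and ENSG00000286828, had log2 fold changes of -5.11, -5.07, -5.03, -5.03, -4.84, -4.77 and -4.75. Of the 20 genes, all had one direction within both runs, which the rule that chose them required.

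Genes of the circadian clock held some of the strongest changes. The clock is a feedback loop in which CLOCK or NPAS2 with BMAL1 binds E-box sequences and activates period, cryptochrome, NR1D and PAR bZIP genes, whose products repress it in turn. Of 19 tested clock genes 10 rose and 4 fell (10 and 2 with TMM factors), with a median log2 fold change of 1.66. NR1D1, the repressor REV-ERBα, had 862 and 1735 CPM in the rotenone cultures, against 20.6, 16.7, 34.9 and 15.1 CPM in the DMSO cultures (log2 fold change 5.85, SE 0.37, edgeR adjusted p = 6.92e-07). CIART, a repressor of CLOCK and BMAL1, had 61.3 and 180.2 CPM against 2.87, 1.46, 4.52 and 1.04 CPM (log2 fold change 5.35, SE 0.46, edgeR adjusted p = 2.32e-06). In both genes the rotenone culture of run 6 was the highest and no DMSO culture came near it. CRY1, a cryptochrome repressor, had 369 and 649 CPM against 39.4, 46.8, 29.3 and 28.2 CPM (log2 fold change 3.83, SE 0.27, edgeR adjusted p = 1.05e-06). PER1, a period repressor that also responds to glucocorticoids and cAMP, had 1579.7 and 1860.3 CPM against 215, 234, 328 and 130.1 CPM (log2 fold change 2.92, SE 0.30, edgeR adjusted p = 7.19e-06). These genes separated the conditions completely, by log2 differences of 3.63 and 4.50 for CRY1 and 2.27 and 3.83 for PER1 within runs 5 and 6.

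Some output and secondary loop genes rose as well. DBP, a PAR bZIP output factor, had 16.01 and 30.6 CPM against 0.797, 2.34, 2.07 and 1.87 CPM (log2 fold change 3.76, SE 0.39, edgeR adjusted p = 8.07e-06). NR1D2, the paralogue of NR1D1, had 366 and 283 CPM against 50.6, 54.4, 42.1 and 47.1 CPM (log2 fold change 2.75, SE 0.20, edgeR adjusted p = 1.06e-06). BHLHE41, BHLHE40, NFIL3 and CRY2, all repressors, rose by 2.87, 1.77, 2.03 and 1.66 on the log2 scale. The activators did not rise. NPAS2 was at 47.7 and 53.3 CPM against 125, 145, 149 and 119 CPM and CLOCK at 50.8 and 29.2 CPM against 82.6, 85.4, 73.7 and 81.5 CPM, with log2 fold changes of -1.42 and -0.999. PER3 (-1.10) was lower too, and with TMM factors CLOCK no longer passed the test. BMAL1 (named ARNTL in the files, log2 fold change -0.18), PER2 (-0.01), RORA (-0.50), TEF (-0.09) and HLF (0.14) did not pass the test under either scaling. NR1D1 overlaps THRA on the opposite strand, and THRA, a thyroid hormone receptor gene, had 24.7 and 32.04 CPM against 29.95, 25.2, 41.5 and 27.6 CPM and did not pass the test. At 0.2 µM, in 1 culture of run 5 that was not tested, NR1D1 was at 264 CPM, CIART at 58.5, CRY1 at 91.04, PER1 at 730.0 and PER2, by contrast, at 85.6 CPM.

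**Figure D2:**
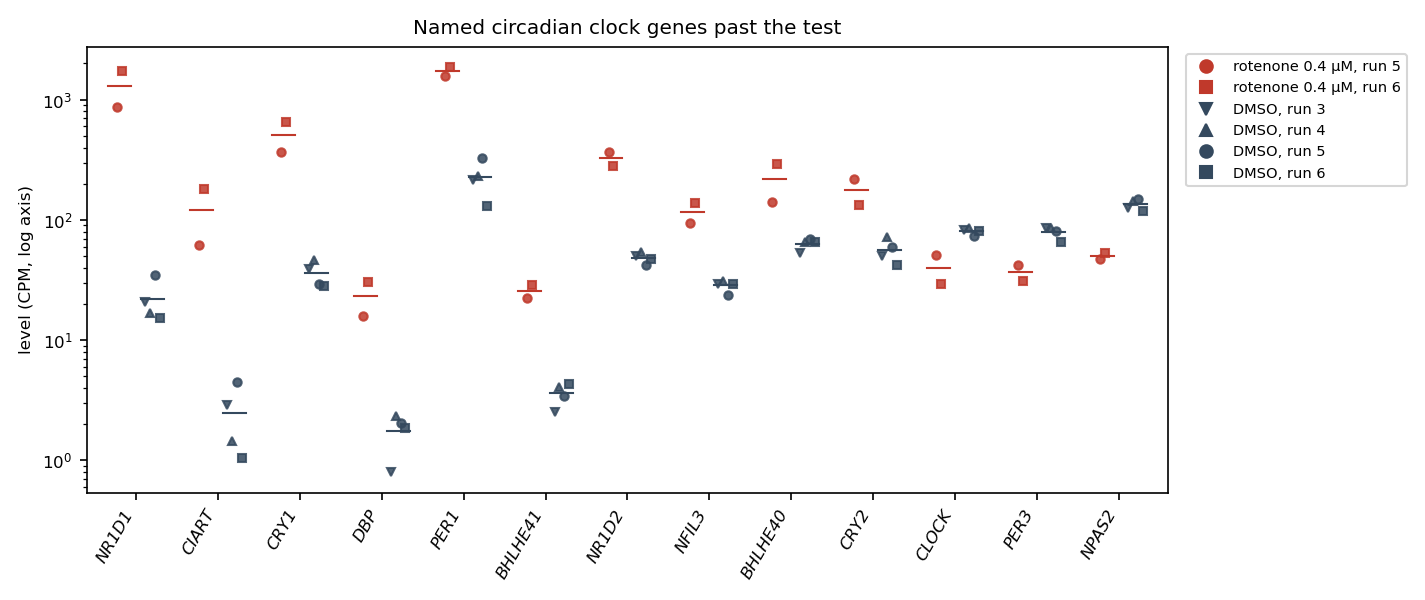
Level in CPM (vertical log axis) of 13 circadian clock genes past the test (horizontal axis, from the largest rise to the largest fall), with rotenone 0.4 µM in red to the left of DMSO in dark blue. Symbols are single cultures by run and horizontal lines the group means. NR1D1 lies at 862 and 1735 CPM in the rotenone cultures, above all DMSO cultures, which reach 34.9 CPM, and NPAS2 at 47.7 and 53.3 CPM, below all DMSO cultures.

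The letters CACGTG, the E-box that CLOCK and BMAL1 are known to bind, were looked for in the 250 bases before the RefSeq start (GRCh38.p14) of each gene. The palindrome reads alike on both strands. A promoter sequence was matched for 18 of the 19 clock genes. Of the 10 genes that rose, 4 held it (PER1, BHLHE40, BHLHE41 and CIART), of the 3 matched genes that fell 0 held it, of the 4 matched genes that did not pass the test 1 did (TEF), and of all 27305 promoters 6.49% did. The share was 8.29% among promoters of all tested genes and 10.5% among those of all genes called higher. NR1D1 and CRY1 had no match in this window. The promoters of CIART (chromosome 1, plus strand, chr1:150282304-150282553) and PER1 (chromosome 17, minus strand, chr17:8152405-8152654) are shown because these genes rose and hold the motif, with each match in capitals.
CIART: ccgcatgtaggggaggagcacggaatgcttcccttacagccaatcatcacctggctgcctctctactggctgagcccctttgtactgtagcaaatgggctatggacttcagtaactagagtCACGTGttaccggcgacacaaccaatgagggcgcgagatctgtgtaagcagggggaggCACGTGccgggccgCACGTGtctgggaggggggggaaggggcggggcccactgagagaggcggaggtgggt
PER1: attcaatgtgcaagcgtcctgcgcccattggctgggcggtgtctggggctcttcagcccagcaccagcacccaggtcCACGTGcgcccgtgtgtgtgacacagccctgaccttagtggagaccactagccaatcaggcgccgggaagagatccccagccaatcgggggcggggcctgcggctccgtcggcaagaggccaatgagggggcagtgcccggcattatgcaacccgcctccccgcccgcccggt
CIART held 3 matches and PER1 1, the first lying 129 and 173 bases before the start. A match is a description of these letters, not evidence of binding.

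Every cytosolic ribosomal protein gene tested was higher in rotenone-treated cells. All 79 of 79 rose, against 19.1% of all tested genes, and all 79 also rose with TMM factors, against 28.1%. Of all genes under 10 kb with at least 50 CPM in a group, 56.7% rose by total count. The median log2 fold change of the 79 was 1.56 (1.12 within run 5, 1.58 within run 6), and single values ranged from 0.62 for RPL27A to 2.88 for RPL17. Together they took 11932 and 15007 CPM in the rotenone cultures, against 4233, 3451, 5247 and 5031 CPM in the DMSO cultures. RPL17, a protein of the large subunit, had 372 and 572 CPM against 55.1, 59.4, 68.8 and 73.04 CPM (log2 fold change 2.88, SE 0.22, edgeR adjusted p = 1.29e-06). RPS3A of the small subunit had 148 and 219.8 CPM against 27.6, 22.5, 34.3 and 35.9 CPM (log2 fold change 2.60, SE 0.23, edgeR adjusted p = 3.00e-06). RPL39 and RPS7 rose by 2.64 and 2.49 on the log2 scale. Leaving out each culture in turn kept between 77 and 79 of the 79 calls. Ribosomal protein genes have many processed pseudogenes, among which the authors' counting could have split reads, so levels of single members are uncertain. The culture at 0.2 µM had a summed level of 6787 CPM and a median log2 difference of 0.39 from the DMSO culture of the same run.

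Genes that build ribosomes were higher in part. Of 30 ribosome biogenesis factors 17 rose and 1 fell (26 and 0 with TMM factors), with a median of 0.96. NOP56, a core protein of box C/D small nucleolar ribonucleoproteins, had 199.8 and 489 CPM against 55.05, 58.2, 55.5 and 55.2 CPM (log2 fold change 2.62, SE 0.28, edgeR adjusted p = 9.38e-06). NPM1, the nucleolar chaperone nucleophosmin, had 550.0 and 439 CPM against 83.2, 86.03, 71.5 and 93.4 CPM (log2 fold change 2.57, SE 0.20, edgeR adjusted p = 1.35e-06). NOP58 and FBL, which sit in the same particles as NOP56, rose by 2.39 and 2.43. The fall was that of DDX10, an RNA helicase, with a log2 fold change of -1.19, which was not called with TMM factors or without the rotenone culture of run 6 (edgeR adjusted p = 0.101). Of 16 tested host genes of small nucleolar RNAs, whose spliced transcripts are themselves non-coding, 12 rose and 1 fell (14 and 0 with TMM factors), with a median of 1.55, while long non-coding RNA genes as a class were lower. ZFAS1 had 609 and 719 CPM in the rotenone cultures, against 95.6, 101, 116 and 69.1 CPM in the DMSO cultures (log2 fold change 2.79, SE 0.23, edgeR adjusted p = 1.66e-06). SNHG12, SNHG15 and SNHG17 rose by 2.90, 2.74 and 2.47, and SNHG14, a very long transcript, had a log2 fold change of -0.78 that did not pass the test with TMM factors or without the rotenone culture of run 6 (edgeR adjusted p = 0.0684).

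Enzymes that load transfer RNAs and the regulators of the integrated stress response rose in part. Of 20 cytosolic aminoacyl-tRNA synthetases 11 rose and 2 fell (12 and 0 with TMM factors), with a median log2 fold change of 0.72. GARS1, the glycyl-tRNA synthetase of cytosol and mitochondria, had 707 and 719 CPM in the rotenone cultures against 68.03, 74.3, 58.4 and 66.2 CPM in DMSO (log2 fold change 3.42, SE 0.20, edgeR adjusted p = 4.51e-07). MARS1 (2.12), TARS1 (2.07) and EPRS1 (1.64), for methionine, threonine, and glutamate with proline, followed. FARSB (-1.05), a subunit for phenylalanine, was lower, but not past the test with TMM factors. Of 17 synthetases of mitochondria 4 rose and 5 fell (7 and 2 with TMM factors), with 3 falls without the rotenone culture of run 6, and with NARS2 at 207 and 179 CPM against 30.5, 34.2, 24.2 and 35.9 CPM (log2 fold change 2.64, SE 0.21, edgeR adjusted p = 1.42e-06) and SARS2 at a log2 fold change of -1.84.

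Among 13 tested transcription factors and feedback genes of the integrated stress response 8 rose and 0 fell (11 and 0 with TMM factors), with a median of 1.45. CHAC1, which degrades glutathione, was low in all cultures, with 5.03 and 9.23 CPM against 0.239, 0.293, 0.838 and 0.415 CPM (log2 fold change 3.65, SE 0.47, edgeR adjusted p = 3.90e-05). SESN2, a leucine sensor that restrains mTORC1, had 240.4 and 315 CPM against 42.3, 48.9, 54.3 and 30.1 CPM (log2 fold change 2.66, SE 0.24, edgeR adjusted p = 2.80e-06). DDIT4, another brake on mTORC1, had 60.9 and 156 CPM against 16.7, 9.07, 27.2 and 18.9 CPM (log2 fold change 2.54, SE 0.38, edgeR adjusted p = 1.10e-04). The rotenone culture of run 6 was higher than that of run 5 in all of these, and the list's median difference was 0.67 within run 5 and 2.01 within run 6. ATF4 itself stood at 303 and 416 CPM against 50.99, 39.2, 65.1 and 54.4 CPM. TRIB3, a pseudokinase that restrains ATF4 signalling, was at 16.5 and 19.03 CPM in the cultures at 0.4 µM, 190.3 CPM at 0.2 µM and 6.21, 7.90, 7.48 and 4.15 CPM in DMSO. DDIT3 (CHOP) was at 69.7 and 58.6 CPM against 77.9, 89.8, 118 and 81.96 CPM and did not pass the test (log2 fold change -0.52, SE 0.23, edgeR adjusted p = 0.0631). PPP1R15A, NUPR1 and ATF5 rose by 1.99, 1.61 and 1.21, the last not without the rotenone culture of run 6 (edgeR adjusted p = 0.0921).

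Upstream of ATF4, 4 of 12 genes rose and 4 fell (5 and 2 with TMM factors), but only 1 rose without the rotenone culture of run 5 and only 2 fell without that of run 6. Of all tested genes 19.1% rose and 42.2% fell, which is the background for the lists of this paragraph. OMA1, the protease of the mitochondrial inner membrane that cleaves DELE1, had 12.02 and 7.56 CPM against 53.1, 74.3, 51.5 and 70.8 CPM (log2 fold change -2.63, SE 0.29, edgeR adjusted p = 1.11e-05). DELE1, which carries the signal to the cytosol, had a log2 fold change of -0.83, and EIF2AK1 (HRI), the kinase it activates, of 0.62. The kinases EIF2AK2 (PKR) and EIF2AK4 (GCN2) were at -1.14 and -0.85, and of the 4 falls only OMA1 and EIF2AK2 were called with TMM factors. Without the rotenone culture of run 6 DELE1 and EIF2AK4 were not called (edgeR adjusted p = 0.0576 and 0.0569), and without that of run 5 EIF2AK1 was not (0.0577). Of 13 enzymes of serine, asparagine, proline and one-carbon synthesis 4 rose and 3 fell (6 and 0 with TMM factors), with 0 falls without the rotenone culture of run 6. PHGDH, the first enzyme of serine synthesis, had 24.9 and 25.5 CPM against 12.2, 4.97, 8.05 and 3.94 CPM (log2 fold change 1.72, SE 0.35, edgeR adjusted p = 0.00113). Among 15 amino acid transporters 3 rose and 6 fell (7 and 5 with TMM factors), shares near the 19.1% and 42.2% of all tested genes. SLC3A2, the heavy chain of the cystine and leucine exchangers, had 115 and 236 CPM against 37.4, 44.5, 45.6 and 36.9 CPM (log2 fold change 2.09, SE 0.26, edgeR adjusted p = 2.55e-05). GDF15, a stress hormone, had 133 and 230.4 CPM against 68.3, 77.3, 73.1 and 79.3 CPM (log2 fold change 1.29, SE 0.22, edgeR adjusted p = 3.53e-04).

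The amino acid response sequence TGATGNAA, to which ATF4 is known to bind with a C/EBP partner, was searched on both strands. It was present in 1 of the 7 matched genes of the stress response list that rose (CHAC1), in 2 of the 5 matched genes of that list that did not pass the test (ATF3 and PPP1R15B), in 2 of the 10 matched synthetases that rose (AARS1 and IARS1), and in 3.19% of all promoters. The share was 1.77% among promoters of all tested genes and 1.37% among those of all genes called higher. The promoters of CHAC1 (chromosome 15, plus strand, chr15:40953221-40953470) and AARS1 (chromosome 16, minus strand, chr16:70289507-70289756) are shown as genes that rose and hold it, on the reverse strand as TTGCATCA in capitals.
CHAC1: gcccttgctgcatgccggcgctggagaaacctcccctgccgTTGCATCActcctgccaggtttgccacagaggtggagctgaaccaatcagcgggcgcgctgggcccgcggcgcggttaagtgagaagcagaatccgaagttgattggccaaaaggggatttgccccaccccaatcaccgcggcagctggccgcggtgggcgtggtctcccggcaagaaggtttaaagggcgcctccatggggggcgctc
AARS1: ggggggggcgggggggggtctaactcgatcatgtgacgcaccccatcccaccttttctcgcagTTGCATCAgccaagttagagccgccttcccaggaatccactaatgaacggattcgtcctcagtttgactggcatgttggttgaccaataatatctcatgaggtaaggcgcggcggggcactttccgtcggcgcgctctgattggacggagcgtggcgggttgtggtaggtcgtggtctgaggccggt
AARS1 had 76.9 and 68.7 CPM in the rotenone cultures against 29.5, 25.5, 35.9 and 27.4 CPM in DMSO (log2 fold change 1.29, SE 0.21, edgeR adjusted p = 1.89e-04), and 262 CPM at 0.2 µM.

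Cytosolic chaperones and proteasome subunits were mostly higher. Of 21 cytosolic heat shock chaperones 17 rose and 0 fell (18 and 0 with TMM factors), with a median log2 fold change of 1.56. DNAJB6, a co-chaperone that holds back aggregation, had 413 and 440.5 CPM in the rotenone cultures, against 55.6, 57.9, 55.8 and 50.8 CPM in DMSO (log2 fold change 2.95, SE 0.18, edgeR adjusted p = 6.70e-07). HSPH1, a nucleotide exchange factor of HSP70, had 322 and 436 CPM against 41.6, 43.6, 38.6 and 45.7 CPM (log2 fold change 3.16, SE 0.20, edgeR adjusted p = 6.84e-07). CACYBP, which binds HSP90 co-chaperones, had 46.8 and 65.2 CPM against 7.09, 6.15, 9.31 and 8.92 CPM (log2 fold change 2.80, SE 0.25, edgeR adjusted p = 2.49e-06). In these genes both rotenone cultures were above every DMSO culture. HSPA1B rose by 2.74 and stood at 80.6 CPM at 0.2 µM, against 66.5 and 80.6 CPM at 0.4 µM. HSPA8, the constitutive HSP70, had 379 and 413 CPM against 173, 161, 305 and 220.2 CPM, a smaller log2 fold change of 0.88.

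The heat shock element was searched on both strands as the blocks GAA, TTC and GAA, each parted from the next by 2 bases of any kind. Of the 16 matched chaperone genes that rose 3 held it (HSPA8, DNAJB6 and CHORDC1), of the 3 matched ones that did not pass the test 0 did, and of all promoters 0.439% did. The share was 0.3625% among promoters of all tested genes and 0.3598% among those of all genes called higher. The promoters of DNAJB6 (chromosome 7, plus strand, chr7:157336754-157337003) and CHORDC1 (chromosome 11, minus strand, chr11:90223050-90223299) are shown for that reason, with matches in capitals.
DNAJB6: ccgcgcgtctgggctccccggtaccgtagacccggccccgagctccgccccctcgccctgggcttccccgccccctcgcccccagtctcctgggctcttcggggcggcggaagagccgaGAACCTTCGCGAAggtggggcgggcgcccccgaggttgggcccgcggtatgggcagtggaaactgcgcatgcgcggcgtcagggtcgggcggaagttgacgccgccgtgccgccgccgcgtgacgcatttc
CHORDC1: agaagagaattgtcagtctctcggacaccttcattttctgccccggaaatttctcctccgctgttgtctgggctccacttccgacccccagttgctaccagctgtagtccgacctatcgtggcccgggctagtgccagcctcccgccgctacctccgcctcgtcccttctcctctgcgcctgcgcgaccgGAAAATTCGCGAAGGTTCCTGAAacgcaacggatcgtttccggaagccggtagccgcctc
CHORDC1, an HSP90 co-chaperone, had 3 overlapping matches in 1 run of capitals, and its level was 148 and 173 CPM against 34.2, 32.8, 27.99 and 38.2 CPM (log2 fold change 2.27, SE 0.20, edgeR adjusted p = 2.27e-06).

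Of 31 proteasome subunits 20 rose and 0 fell (29 and 0 with TMM factors), and their summed level was 2769 and 2738 CPM in the rotenone cultures, against 1259, 1267, 1241 and 1304 CPM in the DMSO cultures. PSMD14, the deubiquitinase of the regulatory particle, had 535 and 614 CPM against 91.2, 112, 65.98 and 87.6 CPM (log2 fold change 2.69, SE 0.23, edgeR adjusted p = 1.85e-06). PSMA2 of the core had 231 and 207 CPM against 35.3, 25.2, 41.7 and 40.3 CPM (log2 fold change 2.61, SE 0.22, edgeR adjusted p = 1.85e-06). PSMB6, a catalytic subunit, and PSMD2, a base subunit, rose by 2.08 and 1.61. The counts of this paragraph stand beside 19.1% of all tested genes higher and 42.2% lower. Among genes of 10 to 100 kb with at least 50 CPM in a group 49.2% rose. Of 14 mitochondrial chaperones and proteases 7 rose and 2 fell (9 and 1 with TMM factors), of 20 chaperones of the endoplasmic reticulum 5 rose and 3 fell (8 and 2, with 5 falls without the DMSO culture of run 4), and of 25 genes of autophagy and lysosomes 10 rose and 3 fell (13 and 1), with 1 fall when the rotenone culture of run 5, that of run 6 or the DMSO culture of run 3 was left out. HSPA5, the main chaperone of the endoplasmic reticulum, was at 358 and 372 CPM against 313, 288, 378 and 313 CPM and passed the test with TMM factors only (log2 0.18 by total count).

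Immediate early genes and chemokines are transcribed soon after a signal reaches the cell. Of 24 tested immediate early genes 7 rose and 12 fell (8 and 11 with TMM factors), where 19.1% of all tested genes rose and 42.2% fell. FOSB, a partner of JUN in AP-1, had 4.70 and 12.03 CPM in the rotenone cultures, against 92.9, 136, 228 and 110.4 CPM in the DMSO cultures (log2 fold change -4.19, SE 0.49, edgeR adjusted p = 1.72e-05). FOS had 5.82 and 8.96 CPM against 59.7, 46.2, 97.7 and 98.6 CPM (log2 fold change -3.41, SE 0.38, edgeR adjusted p = 1.25e-05). EGR2, a zinc finger factor, had 1.10 and 0.840 CPM against 12.7, 16.4, 43.1 and 15.98 CPM (log2 fold change -4.45, SE 0.57, edgeR adjusted p = 3.74e-05), the highest DMSO value being that of run 5. NR4A1, NR4A3, FOSL1 and EGR1 were lower too, with log2 fold changes of -3.83, -2.73, -2.73 and -2.44. The JUN genes of the list ran against the FOS genes. JUN had 429 and 462 CPM against 165, 183, 238 and 219 CPM (log2 fold change 1.15, SE 0.21, edgeR adjusted p = 5.11e-04) and JUND 42.6 and 50.9 CPM against 15.1, 8.78, 14.7 and 11.8 CPM (log2 fold change 1.86, SE 0.25, edgeR adjusted p = 4.67e-05). KLF4 rose by 3.01, NR4A2 by 1.72 and KLF2 by 1.80, KLF2 not without the rotenone culture of run 6 (edgeR adjusted p = 0.211).

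Of 20 tested chemokine and NF-kB feedback genes 4 rose and 8 fell (6 and 8 with TMM factors), shares near the 19.1% and 42.2% of all tested genes, so the values below are those of single genes. NFKBIA, the inhibitor that NF-kB induces against itself, had 244 and 792 CPM in the rotenone cultures and 84.4, 77.5, 139.5 and 88.6 CPM in the DMSO cultures (log2 fold change 2.40, SE 0.37, edgeR adjusted p = 1.41e-04), with a difference of 0.80 within run 5 and 3.15 within run 6. TNFAIP3 (A20), another inhibitor, had 189.6 and 418 CPM against 64.5, 101, 74.96 and 87.98 CPM (log2 fold change 1.89, SE 0.28, edgeR adjusted p = 1.14e-04). CXCL8, a neutrophil chemokine, had 23.6 and 17.8 CPM against 141, 176, 129.7 and 225 CPM (log2 fold change -3.00, SE 0.29, edgeR adjusted p = 5.01e-06). The chemokines CCL20, CXCL1 and CXCL2 were lower too, with log2 fold changes of -3.64, -3.67 and -2.95. NFKB1 rose by 1.32. NFKBIE rose by 0.78 in the fit, but its difference was -0.19 within run 5 and 1.40 within run 6, and it was not called without the rotenone culture of run 6 (edgeR adjusted p = 0.666) or without the DMSO culture of run 3, 4 or 6 (0.0828, 0.0821 and 0.0818).

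**Figure D3:**
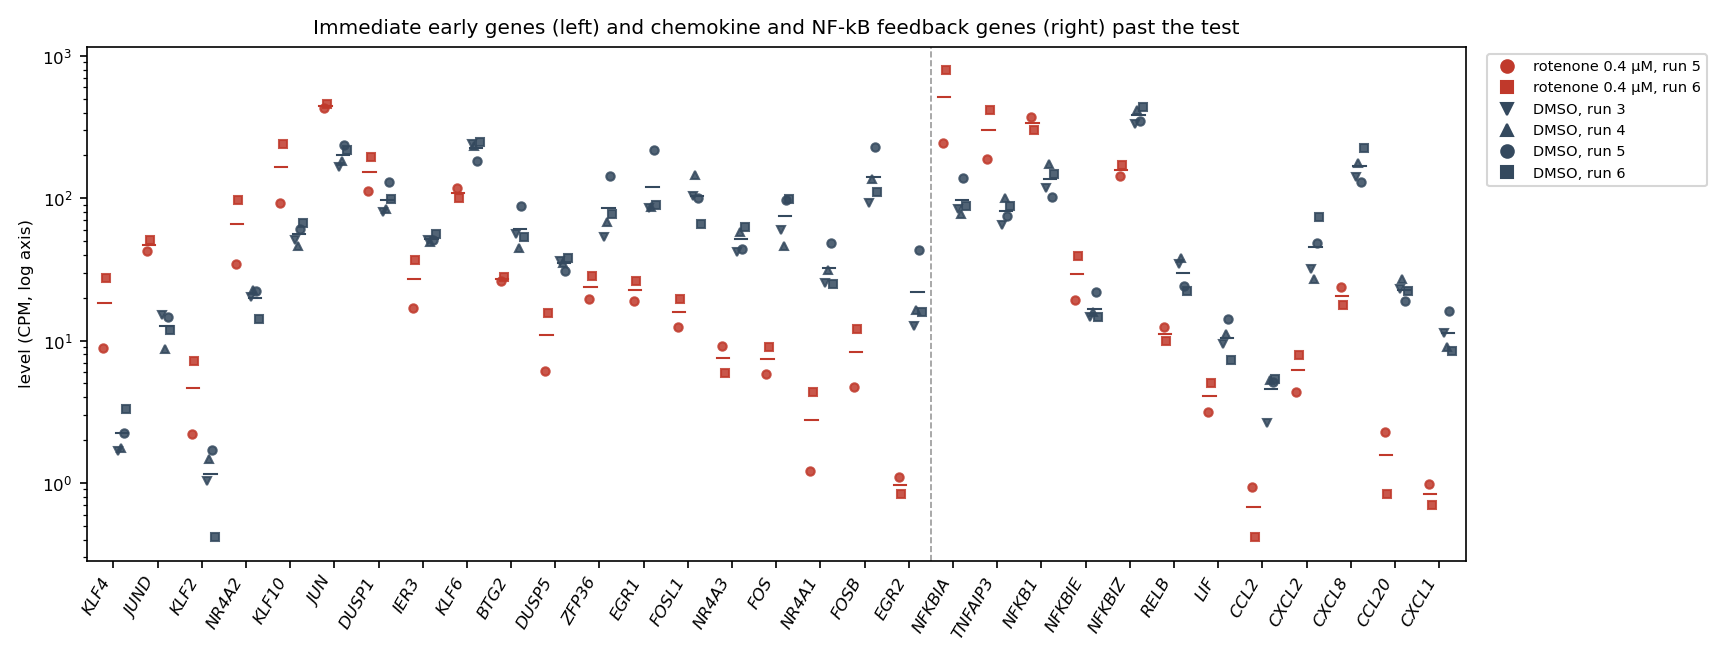
Level in CPM (vertical log axis) of the 19 immediate early genes (left of the dashed line) and 12 chemokine and NF-kB feedback genes (right) past the test, each set from the largest rise to the largest fall, with rotenone 0.4 µM in red left of DMSO in dark blue. Symbols are cultures by run and lines group means. FOSB lies at 4.70 and 12.03 CPM in the rotenone cultures, below the DMSO cultures, and NFKBIA at 244 and 792 CPM, above them.

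Of 25 genes of TGF-beta and BMP signalling and of the matrix 5 rose and 9 fell (8 and 5 with TMM factors), again near the 19.1% and 42.2% of all tested genes. SMAD7, an inhibitor induced by TGF-beta, had 299.5 and 263 CPM in the rotenone cultures, against 10.99, 17.9, 17.1 and 15.8 CPM in the DMSO cultures (log2 fold change 4.20, SE 0.23, edgeR adjusted p = 3.03e-07). SMAD6, its counterpart for BMP signals, had 80.5 and 27.00 CPM against 8.29, 9.36, 9.55 and 6.64 CPM (log2 fold change 2.67, SE 0.35, edgeR adjusted p = 4.04e-05), and the BMP targets ID3 and ID2 rose by 2.49 and 1.82. THBS1, thrombospondin, had 26.6 and 40.2 CPM against 141, 203, 152 and 211 CPM (log2 fold change -2.42, SE 0.28, edgeR adjusted p = 1.55e-05), and COL3A1, COL5A2 and TGFB2 had log2 fold changes of -3.01, -2.30 and -1.30. COL3A1 is also a fibroblast marker, and 6 of the 8 tested fibroblast or stellate cell markers were lower (4 with TMM factors). Fewer cells of a type and less RNA per cell cannot be told apart in sums over a culture, and their part in this result was not tested. COL1A1 was at 6.42 and 7.84 CPM against 9.88, 9.66, 29.3 and 8.92 CPM and did not pass the test (log2 fold change -1.09, SE 0.47, edgeR adjusted p = 0.0619).

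Tubulin genes, the binding partners of rotenone outside mitochondria, did not move as a block. Of 11 tested alpha- and beta-tubulins 3 rose, all of them beta-tubulins, and 4 fell, 3 of them alpha-tubulins (3 and 3 with TMM factors). These shares, 27.3% and 36.4%, are near the 19.1% and 42.2% of all tested genes, so the values below are those of single genes. In TUBB2A the groups overlapped. TUBB4B had 143 and 256 CPM in the rotenone cultures and 52.3, 22.2, 61.2 and 44.2 CPM in the DMSO cultures (log2 fold change 2.12, SE 0.33, edgeR adjusted p = 1.39e-04). TUBA1C had 41.8 and 41.1 CPM against 90.9, 90.1, 89.1 and 64.1 CPM (log2 fold change -1.01, SE 0.22, edgeR adjusted p = 0.00163). TUBB and TUBB2A rose by 0.83 and 0.92, TUBA1A and TUBA8 had log2 fold changes of -2.60 and -2.03 at levels under 10 CPM, and TUBB3 was at -1.64. Without the rotenone culture of run 6 only TUBB4B of the 3 rises passed the test (edgeR adjusted p = 0.234 for TUBB and 0.491 for TUBB2A), TUBB did not pass without the DMSO culture of run 6 (0.0649), and TUBB2A did not without that of run 3 or 4 (0.0770 and 0.0868). Without the rotenone culture of run 5 or of run 6 TUBB3 was not called (0.0597 and 0.120). Tubulin genes are close in sequence, so reads may be split between members. Among 14 tested genes of actin, keratins and adhesion 1 rose and 7 fell (3 and 3 with TMM factors), beside 19.1% and 42.2% of all tested genes. The rise was that of ACTG1, cytoplasmic actin, with 331 and 439.5 CPM against 102, 100.1, 179.9 and 202 CPM (log2 fold change 1.40, SE 0.29, edgeR adjusted p = 0.00119). VCL, vinculin of focal adhesions, had 141 and 117 CPM against 539.6, 686, 501 and 694 CPM (log2 fold change -2.23, SE 0.26, edgeR adjusted p = 1.55e-05), and the tropomyosins TPM1 and TPM4 had log2 fold changes of -1.87 and -1.36.

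Nuclear and mitochondrial genes for oxidative phosphorylation differed in direction. Of 37 nuclear complex I subunits 22 rose and 2 fell (30 and 0 with TMM factors), of 23 subunits of complexes II, III and IV 18 rose and 2 fell (21 and 0), and of 18 subunits of ATP synthase 9 rose and 0 fell (15 and 0). Their median log2 fold changes were 0.81, 0.84 and 0.70, and their median gene lengths 14.3, 10.5 and 11.6 kb. Of all tested genes 19.1% rose and 42.2% fell (28.1% and 30.6% with TMM factors). Among genes of at least 50 CPM in a group, 56.7% of those under 10 kb and 49.2% of those of 10 to 100 kb rose. The medians of these classes were 0.86 and 0.51. The part of gene length and level in the rises of these lists was not tested. Of the 13 proteins encoded in mitochondrial DNA 0 rose and 10 fell (0 and 7 with TMM factors), with a median of -1.64, and without the rotenone culture of run 6 there were 4 falls. ATP5F1B, the catalytic beta subunit of ATP synthase, had 484 and 634 CPM in the rotenone cultures and 170.5, 132, 220.4 and 194 CPM in the DMSO cultures (log2 fold change 1.64, SE 0.23, edgeR adjusted p = 7.85e-05). COX7B, a small subunit of cytochrome oxidase, had 93.96 and 125 CPM against 38.1, 27.5, 49.03 and 41.3 CPM (log2 fold change 1.47, SE 0.23, edgeR adjusted p = 1.84e-04). MT-ATP8, a subunit of the same ATP synthase encoded in mitochondria, had 111 and 53.9 CPM against 534, 254, 448 and 424 CPM (log2 fold change -2.32, SE 0.36, edgeR adjusted p = 1.61e-04). The DMSO culture of run 4 was the lowest of the controls in MT-ATP8 and in the summed level of the 13 genes, at 7640 CPM, against 12517 and 11119 CPM in the rotenone cultures and 17932 to 22648 CPM in the other DMSO cultures. MT-CO1 and MT-ND4, the most abundant of them in the rotenone cultures, did not pass the test, with log2 fold changes of 0.11 and 0.02. Cells were chosen by their MT- UMIs, to which the 13 genes contribute. In run 6 that limit removed 52.4% of rotenone-treated and 4.12% of DMSO-treated cells. With no limit, 0 of the 13 rose and 10 fell, and with at most 10% MT- UMIs 0 rose and 9 fell. Mitochondrial ribosomal RNA, also counted as MT-, was not lower in the median cell used. It took 13.03% and 15.6% of the UMIs of that cell in the rotenone cultures, against 12.1%, 1.71%, 12.6% and 10.6% in DMSO. The falls among nuclear subunits were NDUFB1, NDUFV3, UQCRC2 (-0.90) and SDHC (-0.63), none of which passed the test with TMM factors. SDHC was not called without the rotenone culture of run 6 (edgeR adjusted p = 0.271) or without any 1 of the DMSO cultures of runs 3, 4, 5 and 6 (0.0505, 0.0633, 0.0696 and 0.0683).

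Genes that make and import mitochondrial proteins rose in part. Of 75 tested mitochondrial ribosomal proteins 30 rose and 5 fell (51 and 1 with TMM factors), with a median of 0.60, and leaving out each culture in turn gave 20 to 35 rises, with 1 fall without the rotenone culture of run 6 and 3 without the DMSO culture of run 4. MRPL22 had 70.8 and 73.04 CPM against 10.4, 9.95, 10.96 and 11.2 CPM (log2 fold change 2.75, SE 0.20, edgeR adjusted p = 1.06e-06), and MRPL9, MRPS6 and MRPS35 rose by 2.62, 2.45 and 2.22. Of 22 import genes 11 rose and 1 fell (17 and 1), among them TOMM34 (1.87), a cytosolic co-chaperone of import, and TOMM70 (1.64), a receptor of the outer membrane. For upkeep of mitochondrial DNA and biogenesis, 8 of 19 genes rose and 4 fell (11 and 2), with 2 falls without the rotenone culture of run 6. TFB2M, a factor needed to start mitochondrial transcription, had 60.8 and 71.8 CPM in the rotenone cultures against 11.2, 12.3, 12.8 and 10.4 CPM in DMSO (log2 fold change 2.50, SE 0.21, edgeR adjusted p = 1.85e-06). TFAM, which packs mitochondrial DNA, rose by 1.18. POLG2, the accessory subunit of the mitochondrial DNA polymerase, had 30.8 and 24.5 CPM against 115, 164, 129 and 122 CPM (log2 fold change -2.25, SE 0.24, edgeR adjusted p = 9.57e-06), and TFB1M, a methylase of mitochondrial ribosomal RNA, had a log2 fold change of -2.18. Of 15 assembly factors of complex I 4 rose and 5 fell (5 and 2), with 3 falls without the rotenone culture of run 6, and with TMEM70 at 2.42 and ACAD9 at -2.15.

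Several lists of hepatocyte function held falls and no rise. Of 20 tested cytochromes P450 of families 1 to 4, the enzymes of drug and steroid oxidation, 0 rose and 18 fell (0 and 16 with TMM factors), against 42.2% of all tested genes, and their median log2 fold change was -2.18 (-1.88 within run 5 and -3.19 within run 6). CYP3A5 was the most abundant cytochrome named here, with 379 and 124 CPM in the rotenone cultures, against 1929, 2100.5, 1788 and 1971 CPM in the DMSO cultures (log2 fold change -2.95, SE 0.42, edgeR adjusted p = 7.33e-05). It made up most of the summed level of the list in the DMSO cultures, which was 2733, 2818, 2808 and 2811 CPM. CYP2C19 had 4.22 and 1.54 CPM against 30.03, 34.2, 31.3 and 39.8 CPM (log2 fold change -3.39, SE 0.37, edgeR adjusted p = 1.01e-05), and CYP2A6, CYP3A43 and CYP2B6 had log2 fold changes of -4.02, -3.31 and -2.99. All 7 tested urea cycle genes were lower (6 with TMM factors). ASL, argininosuccinate lyase, had 62.9 and 39.3 CPM against 195, 231, 220.5 and 184 CPM (log2 fold change -2.01, SE 0.25, edgeR adjusted p = 2.81e-05). CPS1, the first enzyme of the cycle, had 86.8 and 10.5 CPM against 176, 172, 241 and 322 CPM (log2 fold change -2.20, SE 0.60, edgeR adjusted p = 0.00702). The rotenone cultures differed widely in CPS1, with the one of run 6 far below that of run 5. ARG1, which releases urea, had a log2 fold change of -3.01, and SLC25A13, the aspartate carrier, one of -1.98 at 0.4 µM and a level of 249 CPM at 0.2 µM, where DMSO cultures had 195, 239, 167 and 204 CPM.

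Of 18 genes of bile acid synthesis and transport 0 rose and 16 fell (0 and 15 with TMM factors). ABCB11, the bile salt export pump, had 1.48 and 0.280 CPM in the rotenone cultures, against 13.2, 32.8, 22.5 and 31.3 CPM in the DMSO cultures (log2 fold change -4.42, SE 0.53, edgeR adjusted p = 2.24e-05), and SLCO1B1, an uptake carrier, 9.16 and 1.96 CPM against 50.9, 58.2, 57.5 and 70.6 CPM (log2 fold change -3.26, SE 0.45, edgeR adjusted p = 5.75e-05). Of 26 coagulation and complement genes 0 rose and 18 fell (0 and 12), and F12, C8A, F11 and F13B had log2 fold changes of -2.70, -2.66, -2.65 and -2.42. Of 19 plasma transport proteins and apolipoproteins 0 rose and 4 fell (0 and 2), with 12 falls without the rotenone culture of run 5 and 2 without that of run 6. This share of falls, 21.1%, is below the 42.2% of all tested genes. ALB, albumin, had 11458 and 5378 CPM against 6728, 5048, 8107 and 16059 CPM, overlapping between the groups (log2 fold change -0.09, SE 0.47, edgeR adjusted p = 0.874), and its difference was 0.50 within run 5 and -1.58 within run 6. Of 13 tested acute phase proteins 0 rose and 7 fell (0 and 2), with 3 falls without the rotenone culture of run 6, and of 22 conjugation enzymes 0 rose and 15 fell (2 and 9). With TMM factors 30.6% of all tested genes fell, a larger share than in the plasma protein and acute phase lists. G6PC1 and PCK1, which release and make new glucose, had log2 fold changes of -4.12 and -3.25, in a list of 15 genes with 3 higher and 7 lower (4 and 3). With at most 10% MT- UMIs, where fewer cells and genes remained, 5 of 21 coagulation and complement genes and 4 of 17 conjugation enzymes fell. In that setting 11 of 13 bile acid genes and 9 of 16 cytochromes P450 fell, beside 3537 of 12648 tested genes. Since hepatocyte markers are members of these lists, the share of hepatocyte-like cells and their RNA cannot be told apart here, and 5 of the 12 hepatocyte markers were lower and 0 higher, near the 42.2% of all tested genes that fell. Without the rotenone culture of run 5, 8 of the 12 were lower.

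Of 20 liver transcription factors 3 rose and 12 fell (3 and 9 with TMM factors). Among all tested genes 19.1% rose and 42.2% fell (28.1% and 30.6% with TMM factors). NR1H4 (FXR), the bile acid receptor, had 47.1 and 11.3 CPM in the rotenone cultures against 168, 196, 161 and 190.3 CPM in DMSO (log2 fold change -2.57, SE 0.43, edgeR adjusted p = 2.85e-04). HNF4A had 44.7 and 24.1 CPM against 100.3, 95.7, 137 and 106 CPM (log2 fold change -1.66, SE 0.28, edgeR adjusted p = 2.77e-04). NR5A2 (LRH-1), ONECUT1 (HNF6) and NR1I3 (CAR) had log2 fold changes of -2.87, -2.47 and -3.02. ONECUT2, the paralogue of ONECUT1, moved the other way, with 96.9 and 83.95 CPM against 39.8, 44.8, 42.4 and 47.5 CPM (log2 fold change 1.06, SE 0.19, edgeR adjusted p = 4.32e-04). PPARA, the receptor that drives fatty acid oxidation, had 62.4 and 41.8 CPM against 258, 277, 234 and 245 CPM (log2 fold change -2.27, SE 0.24, edgeR adjusted p = 8.90e-06), in a list of 23 genes of fatty acid oxidation with 2 higher and 6 lower (with TMM factors 8 and 2, without the rotenone culture of run 6 instead 4 and 3). PLIN2, a lipid droplet coat protein, had 74.5 and 70.7 CPM against 143, 153, 168 and 176 CPM (log2 fold change -1.14, SE 0.20, edgeR adjusted p = 3.98e-04).

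Other metabolic and growth lists moved less uniformly. Their counts stand beside 19.1% of all tested genes higher and 42.2% lower (28.1% and 30.6% with TMM factors). Of 22 cholesterol synthesis genes 1 rose and 11 fell (2 and 4 with TMM factors), with 5 falls without the rotenone culture of run 6, the rise being MSMO1, a sterol demethylase, at 929.5 and 506 CPM against 286, 312, 309 and 354 CPM (log2 fold change 1.19, SE 0.25, edgeR adjusted p = 0.00123), while SREBF2, the master factor of the pathway, had a log2 fold change of -1.64. Of 27 glycolysis genes 7 rose and 7 fell (12 and 5), with 4 rises without the rotenone culture of run 6 and 11 without the DMSO culture of run 5, and the kinases PDK1 and PDK4, which keep pyruvate from oxidation, rose by 2.10 and 2.01. Of 19 citric acid cycle genes 6 rose and 3 fell (9 and 2), of 20 hypoxia targets 8 and 2 (11 and 1), and of 25 NRF2 targets 7 and 5 (13 and 3), with 4 rises without the rotenone culture of run 6. HIF1A was at 470.1 and 417 CPM against 339, 368, 274 and 398 CPM and SQSTM1 at 266 and 223 CPM against 324, 373, 414 and 301 CPM, and neither passed the test by total count, while HIF1A did with TMM factors. Of 26 replication and mitosis genes 10 rose and 0 fell (15 and 0), with 17 rises without the DMSO culture of run 3 and 6 without the rotenone culture of run 6. Their summed level was 1032 and 1455 CPM in the rotenone cultures, against 1353, 280.04, 456 and 278 CPM in the DMSO cultures, so that the DMSO culture of run 3 lay between the rotenone cultures. Of 29 replication-dependent histones 6 rose and 8 fell (10 and 6), of 23 p53 targets 11 and 7 (12 and 4; 7 and 4 without the rotenone culture of run 6), and of 14 BCL2 family genes 3 and 6 (4 and 4). KRT19, a biliary keratin, was at 58.7 and 75.8 CPM against 66.9, 73.2, 116 and 96.1 CPM and did not pass the test.

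The changes in these lists were also looked at cell by cell. In the median cell, cytosolic ribosomal protein genes took 1.19% and 1.51% of the UMIs in the rotenone cultures of runs 5 and 6, against 0.402%, 0.325%, 0.506% and 0.523% in the DMSO cultures. The share of rotenone-treated cells above the 95th percentile of the DMSO cells of their own run was 62.7% and 86.4%. For the clock list this share was 82.6% and 94.5%, for heat shock chaperones 85.2% and 83.6%, and for proteasome subunits 93.7% and 94.5%. NR1D1 and PER1, described above, made up most of the summed clock level in the rotenone cultures, so the clock share rests largely on these genes. In the rotenone culture of run 5 the 10th and 90th percentiles over cells were 0.215% and 0.331% for proteasome genes and 0.154% and 0.580% for clock genes. Cytochromes P450 took 0.0497% and 0.0216% of the UMIs of the median cell in the rotenone cultures and 0.148% to 0.182% in the DMSO cultures. Only 21.6% and 42.7% of rotenone-treated cells lay below the 5th percentile of the DMSO cells of their own run. Some DMSO-treated cells held far more, with 90th percentiles of 0.628% to 0.650%, and in the rotenone cultures these percentiles were 0.121% and 0.0479%. Over the 8 sublibraries, which hold cells of every culture, the ribosomal protein share in runs 5 and 6 together ranged from 1.17% to 1.35% in rotenone-treated cells and from 0.459% to 0.585% in DMSO-treated cells.

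**Figure D4:**
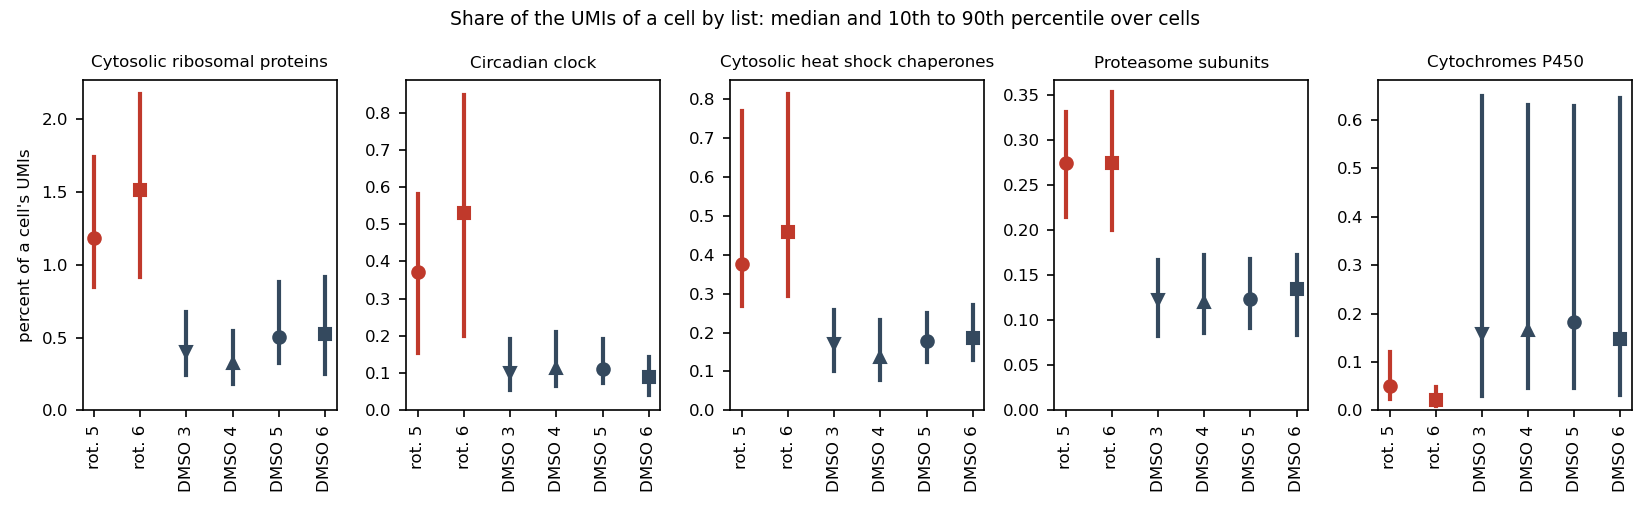
Percent of the UMIs of a cell that fall on each of 5 gene lists (vertical axes, each from 0), for the rotenone cultures of runs 5 and 6 (red, left) and the DMSO cultures of runs 3 to 6 (dark blue). Symbols are medians over cells and bars the 10th to 90th percentile. The ribosomal protein medians are 1.19% and 1.51% in the rotenone cultures, above all DMSO medians, and the long bars of cytochromes P450 in DMSO are short in the rotenone cultures.

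Shares of cells with at least 1 UMI were compared after each cell was thinned to 5000 UMIs, since depth differed between cultures. NR1D1 was found in 81.6% and 83.6% of the cells of the rotenone cultures, against 9.60%, 7.09%, 17.04% and 4.30% of the cells of the DMSO cultures. Before thinning these shares were 96.4% and 96.4%, against 43.6%, 25.2%, 69.1% and 39.8%. GARS1 was found in 85.7% and 90.9% of rotenone-treated cells and 24.4% to 30.4% of DMSO-treated cells (98.6% and 99.1%, against 66.9% to 89.4%, before thinning). HNF4A went the other way, with 15.98% and 9.09% in the rotenone cultures and 31.2% to 39.9% in the DMSO cultures (81.1% and 48.2%, against 70.1% to 85.5%, before thinning). PPP1R15A differed between the rotenone cultures, at 37.8% in run 5 and 77.3% in run 6, against 15.0% to 25.4% in the DMSO cultures (95.2% and 100%, against 47.2% to 87.5%, before thinning). At 0.2 µM the shares were 42.3% for NR1D1, 80.6% for GARS1, 17.8% for HNF4A and 55.5% for PPP1R15A. The share of cells above 2 times the mean of DMSO-treated cells was 83.5% and 87.3% for PER1 in the rotenone cultures, against 12.4%, 18.9%, 24.1% and 4.30% in the DMSO cultures. For CYP3A5 that share was 0% in both rotenone cultures, which allows up to 0.726% and 2.73% by counting error, and 17.2% to 19.2% in the DMSO cultures.

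**Figure D5:**
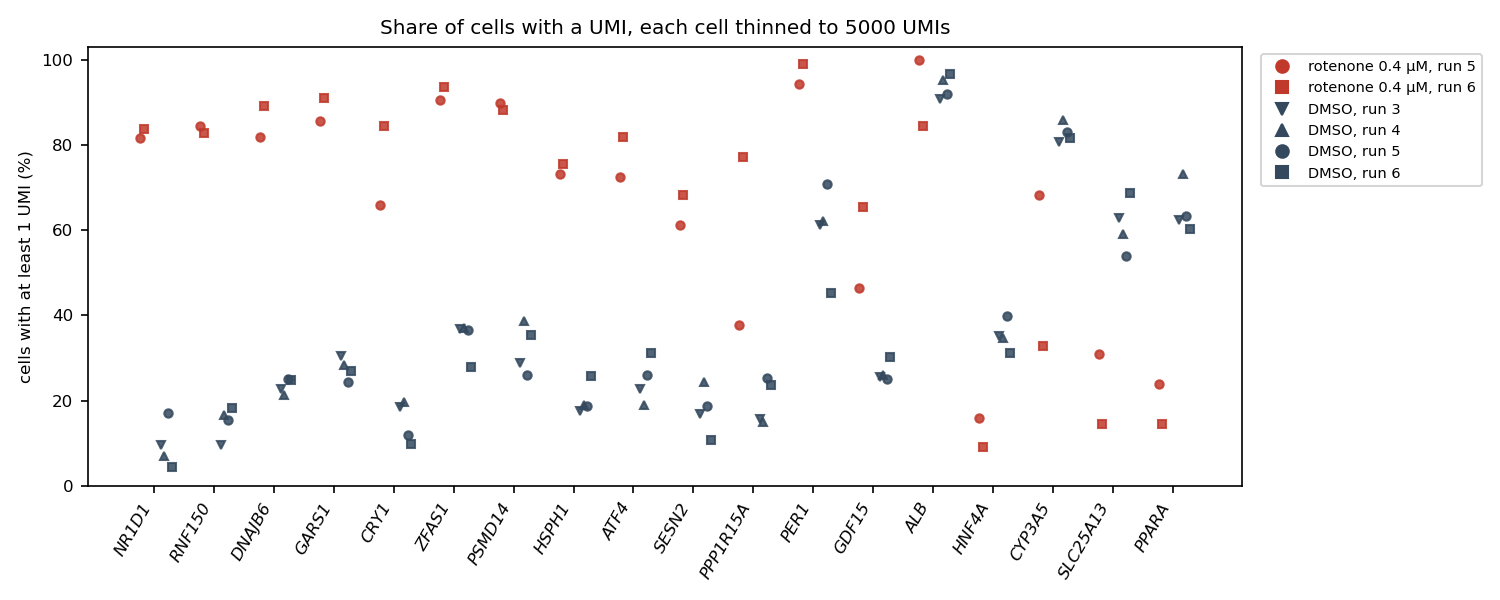
Percent of cells with at least 1 UMI of a gene after thinning each cell to 5000 UMIs (vertical axis) for 18 genes (horizontal axis, ordered by the difference), with the rotenone cultures in red left of the DMSO cultures in dark blue. NR1D1 stands at 81.6% and 83.6% in the rotenone cultures and at most 17.04% in DMSO, HNF4A and PPARA lie lower in the rotenone cultures, and ALB overlaps.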

How the data were processed

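Per the labels and the methods, the authors sequenced single fixed HepaRG cells with Parse Evercode, aligned reads to GRCh38, collapsed identical UMIs and deposited UMI counts per gene and cell. Versions of the aligner and annotation: not given in the sources used here. Cells of 500 or more genes and no more than 20% MT- UMIs were summed per sample name of the deposited cell table, since the GEO samples are sublibraries that carry no treatment. A DMSO sample of run 1 with 4 cells was left out. Doublets were not called. Culture totals, 0.2 µM included, differed by up to 28.4-fold, so small differences of low genes were less precise in the shallow cultures.

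Genes passing filterByExpr were tested with edgeR 4.0.16 (quasi-likelihood, total-count scaling, Benjamini-Hochberg threshold 0.05) in R 4.3.3. Within-run log2 differences used a pseudocount of 0.5 CPM. Cells were thinned to 5000 UMIs for shares of cells, and limits for a count of 0 use 3 counts and cover counting error only. Simulated data of this design with 19714 genes gave 14%, 48%, 100% and 100% recovery at 1.5-, 2-, 4- and 8-fold. Alternatives were TMM factors, DESeq2 1.42.0 size factors and Wald test, other gene and cell filters, means over cells, thinning, a run block and leaving out each culture. Promoter sequences are from RefSeq (GRCh38.p14).

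Named genes were the 10 largest rises and 10 largest falls past the test with a group mean of at least 50 CPM, at least 50 UMIs in the higher group and one direction in runs 5 and 6, up to 4 members of each list with the largest folds in each direction, and genes the study follows. Other clock, tubulin, oxidative phosphorylation and stress genes were chosen once their values were known. Some genes that the rule names are not reported here. The members and lists were chosen with earlier results of these data known.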

Additional observations from a re-analysis of the deposited data

Results flagged for a closer look

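Among 209 values examined, 15 had 1 DMSO culture far from the other 3, and chance gives about 1 in 20 such groups. The DMSO culture of run 5 was high in EGR2 (43.1 CPM, the others 12.7 to 16.4), NFKBIE (21.9 CPM), COL1A1 (29.3 CPM) and G6PC1 (18.6 CPM), and low in the sum of the cytosolic tRNA synthetases (971 CPM). The DMSO culture of run 4 was high in NOP56 (58.2 CPM), ENSG00000287778 (181 CPM) and ENSG00000236212 (395 CPM) and low in RGS16 (0.293 CPM). The DMSO culture of run 6 was high in MARS1 (32.4 CPM), PSAT1 (26.4 CPM) and C8A (66.2 CPM) and low in TUBA1C (64.1 CPM). Run 3 of DMSO gave low values for PDK1 (17.3 CPM, the others at 19.3) and for the sum of cytochromes P450 (2733 CPM).

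NFKBIE differed in direction between runs, with a log2 difference of -0.19 within run 5 and 1.40 within run 6. The difference between the runs was not tested.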

How the results depend on the processing

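No gene called in the main test was called in the opposite direction under any alternative. Changes of sign without a call were not counted here. Rises numbered 5884 with DESeq2 size factors. Falls numbered 5564 with the DESeq2 Wald test, 4314 among genes of at least 10 CPM and 3537 with at most 10% MT- UMIs, where fewer genes were tested and 47 and 10 rotenone-treated cells remained per culture. Leaving out each culture in turn gave 3309 to 3836 rises and 6859 to 8445 falls. Without cells that share barcodes, chosen after seeing the data, there were 3736 rises and 8121 falls, and with runs 5 and 6 only, also chosen then, 3420 and 7477. Of 176 named genes past the test, 24 lost it under some alternative. With at most 10% MT- UMIs 19 lost it, with the DESeq2 Wald test 12, and without the rotenone culture of run 6 11, and a gene can be among several of these. Named genes that were not tested under an alternative are not counted as lost.

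The main test did not pair the cultures by run, since only runs 5 and 6 were shared. Over genes of at least 50 CPM in a group, the differences between runs 5 and 6 in rotenone and in DMSO had a correlation of -0.20. With a single such difference per condition, this cannot decide whether cultures of a run belong together. With the run as a replicate block there were 2900 rises and 6851 falls over all cultures, and 3126 and 7045 in runs 5 and 6.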
